A study of Mus musculus with 12 samples.

Results

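The genes described here are 43 genes of the cell cycle and of DNA replication, taken from a sequencing survey of RNA in sorted islet cells. They were chosen by name, as rows of the count table whose Ensembl identifier maps to a listed mouse symbol, and all 43 symbols were found among 52962 gene identifiers. They fall into 24 mitotic members, which act in mitosis or on its way, and 19 S-phase members, which license, copy or supply DNA in S phase. Cells came from islets of female NOD mice, an inbred strain that develops autoimmune diabetes, and all 4 groups share that genotype and received no treatment that the labels name. β-cells and non-β-cells were sorted by autofluorescence from islets of mice aged 4 weeks or 8 weeks, with 3 samples in each of the 4 groups. The study's account is that islets were cultured overnight, that cells carrying the leukocyte marker CD45 were removed in the sort, and that samples are pools of mice, so no value belongs to 1 animal. The study's legend gives 3 pools of 3 mice in each group and calls the samples of each panel biologically independent. Nothing in the labels says that the 3 samples of a group came from separate mice, and p-values measure only the spread between these samples.

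A dividing cell passes through G1, S, G2 and M phases. Before S phase, Cdc6 and Cdt1 load the ring-shaped Mcm2 to Mcm7 helicase onto origins of replication, and Cdc45 with the GINS complex then turns it on. Genes of this kind are switched on by E2F factors around the start of S phase, together with the enzymes that make DNA precursors. A later set of genes, including B-type cyclins, spindle proteins and mitotic kinases, is held down by the DREAM complex in resting cells and rises in G2 and M. Many of that set are known to carry a cell cycle homology region (CHR) and CCAAT boxes close to the start site. β-cells multiply fast in newborn mice and divide less often as mice grow, whereas many S-phase proteins also serve DNA repair and are present in resting cells.

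The promoters of the 2 classes held different words. RefSeq windows on build GRCm38.p6, running from 250 bases before to 50 bases after the start site, were found for 36 of the 43 members. The words searched, on both strands, were TTTGAA for the CHR, CCAAT for the CCAAT box, and 4 spellings of the E2F core. These spellings were TTCCCGC, the spelling TTCGCGC, the spelling TTGCCGC and the spelling TTGGCGC. The CHR word stood in 15 of 20 mitotic windows (75%), in 2 of 16 S-phase windows (12.5%) and in 18.1% of the windows of 27025 genes. An E2F core word stood in 3 mitotic windows (15%), in 9 S-phase windows (56.2%) and in 9.7% of all windows. The CCAAT word was in 85% of mitotic, 62.5% of S-phase and 37.9% of all windows, and the CHR word and the CCAAT word stood together in 70%, 12.5% and 7.1%. E2F core words on opposite strands can overlap each other, and each window is counted once. A match is a description of letters and shows neither a bound site nor a cause, and no window was found for Ccna2, Aurkb, Kif20a, Tpx2, Mcm4, Ccne2 and Gins2.

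Stretches of 4 mitotic members that fell with age in β-cells are printed because each holds the CHR word. Of the 6 members called lower there, Bub1b holds it too and Nusap1 does not, while Aurka, Cenpa and Kif23 are among those that hold it and were not called. They run from 170 bases before to 20 bases after the start site, 5′ to 3′ on the gene's own strand, and capitals mark the words searched. Mki67 lies at chr7:135716360-135716549 (- strand), Ccnb2 at chr9:70421535-70421724 (- strand), Cdc20 at chr4:118437324-118437513 (- strand) and Cenpf at chr1:189688067-189688256 (- strand).
Mki67: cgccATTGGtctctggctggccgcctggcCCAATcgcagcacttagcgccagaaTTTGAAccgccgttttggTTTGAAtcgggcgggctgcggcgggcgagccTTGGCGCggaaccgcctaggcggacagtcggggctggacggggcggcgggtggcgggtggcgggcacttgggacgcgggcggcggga
Ccnb2: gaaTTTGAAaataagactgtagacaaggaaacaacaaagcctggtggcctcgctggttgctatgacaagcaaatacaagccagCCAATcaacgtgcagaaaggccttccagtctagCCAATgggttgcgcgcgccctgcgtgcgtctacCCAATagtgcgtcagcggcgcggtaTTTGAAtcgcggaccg
Cdc20: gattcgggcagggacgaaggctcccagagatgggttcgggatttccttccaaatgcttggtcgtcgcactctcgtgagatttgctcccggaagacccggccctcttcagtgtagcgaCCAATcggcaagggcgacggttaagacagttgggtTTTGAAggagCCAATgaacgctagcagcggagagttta
Cenpf: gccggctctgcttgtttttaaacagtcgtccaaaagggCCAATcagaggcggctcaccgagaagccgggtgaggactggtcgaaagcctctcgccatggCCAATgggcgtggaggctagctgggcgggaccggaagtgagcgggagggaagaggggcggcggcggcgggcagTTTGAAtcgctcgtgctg

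In Cdc20 the CHR word begins 18 bases before the start site, between CCAAT words that begin 53 and 8 bases before it. In Ccnb2 and Cenpf a CHR word begins just after the start site, at bases 5 and 3. Mki67 holds the CHR word at 116 and 98 bases before the start and, unlike the other three printed, an E2F core word at 67 bases before it. The windows of 3 helicase subunits that differed between the fractions at 8 weeks are printed the same way, for their E2F core words. Mcm5 lies at chr8:75109339-75109528 (+ strand), Mcm6 at chr1:128359686-128359875 (- strand) and Mcm7 at chr5:138171864-138172053 (- strand), where the first of the 2 start sites listed for Mcm7 is used.
Mcm5: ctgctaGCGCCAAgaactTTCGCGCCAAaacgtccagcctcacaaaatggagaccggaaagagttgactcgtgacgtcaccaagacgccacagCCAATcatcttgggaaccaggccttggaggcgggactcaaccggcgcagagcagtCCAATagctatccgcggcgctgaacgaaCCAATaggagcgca
Mcm6: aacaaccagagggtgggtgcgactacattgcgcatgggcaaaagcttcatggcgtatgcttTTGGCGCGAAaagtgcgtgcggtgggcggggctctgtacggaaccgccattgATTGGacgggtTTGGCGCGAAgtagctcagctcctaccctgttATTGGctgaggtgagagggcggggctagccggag
Mcm7: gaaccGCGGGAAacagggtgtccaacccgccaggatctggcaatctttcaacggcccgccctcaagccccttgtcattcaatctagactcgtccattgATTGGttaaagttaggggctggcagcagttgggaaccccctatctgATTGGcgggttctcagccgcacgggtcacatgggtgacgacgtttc

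In Mcm6 a pair of E2F core words overlap on opposite strands in the run TTGGCGCGAA, which begins at both 109 and 46 bases before the start site. Mcm5 has such words from 164 to 149 bases before the start, and the printed stretch of Mcm7 has 1 at 165 bases before it. The printed stretches cut off an overlapping pair in the Mcm7 window, which begins at bases 18 and 21 after the start. They also leave out a word at base 25 in the Mcm6 window. None of these 3 windows holds the CHR word.

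**Figure D1:**
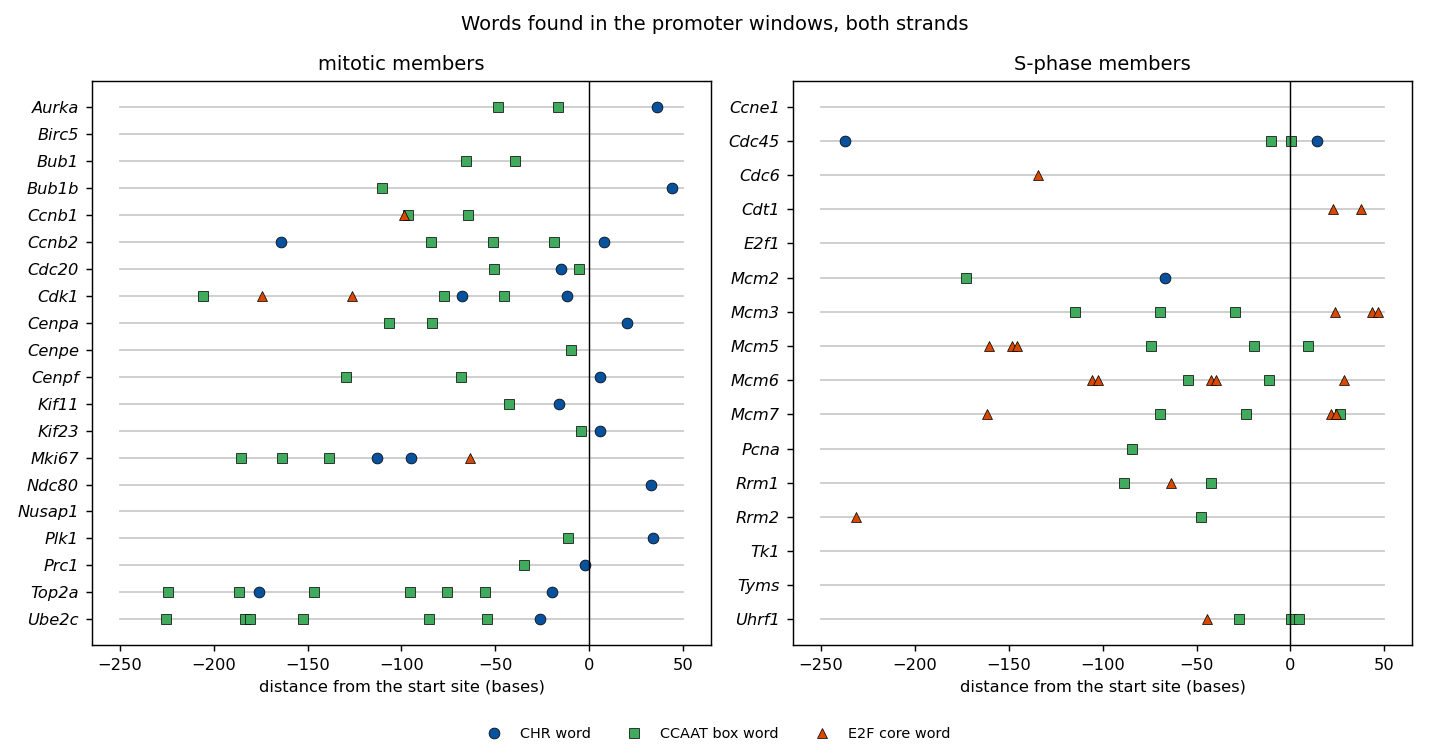
Position of each word in the promoter windows of 20 mitotic (left) and 16 S-phase members (right), against the distance from the start site in bases. Grey lines are the 300-base windows. CHR words (blue circles) lie in 15 mitotic and 2 S-phase windows, and E2F core words (orange triangles) in 3 and 9.

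The values are estimated counts from kallisto, scaled between libraries and given as CPM, which are counts scaled to a common library size. Libraries held between 13755106 and 27040652 estimated counts. The mitotic members together gave 408 to 1196 counts a sample and the S-phase members 3424 to 5835, so single mitotic genes rest on few counts. β-cell markers such as Ins1, Ins2 and Mafa summed to 46700 to 114000 CPM in β samples and to 2910 to 5900 in non-β samples, and alpha-cell markers such as Gcg to 1520 to 9410 and 106000 to 136000, in the order the labels give. In either fraction the 4-week sample numbered 3 was unlike its 2 companions over all genes, and values without them are given where they matter. Non-β sample 1 of 8 weeks also stood apart. Its chi-square per degree of freedom was 26 and 37 against its companions, which were at 9.97 against each other.

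Per kilobase of the longest annotated transcript, S-phase members were the more abundant class. Pcna, the sliding clamp of DNA polymerases, was highest at 31.4 CPM per kilobase over the 4 group means, followed by Rrm1 at 9.39 and Mcm7 at 8.71. Aurka, a kinase of the spindle poles, was the highest mitotic member at 1.64, and Bub1, a checkpoint kinase, the lowest of all 43 at 0.05. Of the mitotic members 19 passed the filter on low values (CPM above 1 in at least 3 samples), and Aurkb, Bub1, Plk1, Birc5 and Kif11 did not. Of the S-phase members 17 passed, and Cdc6 and Tk1 did not. Of the mitotic members that passed, 5 would not have done so without some 1 group. For Ccnb2 that was the 4-week β group, and for Bub1b the 8-week non-β group. Nusap1 needed both 4-week groups, Kif23 both non-β groups, and Ndc80 each group but the 8-week β group. Counts over tested members therefore describe them and are no support for a direction.

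Summed over all 24 mitotic members, filter or not, the level was lower at 8 than at 4 weeks in β-cells. It was 52.6, 47.4 and 45.4 CPM in the β samples at 4 weeks and 18.9, 22.8 and 22.5 at 8 weeks. In non-β samples it was 45.7, 44.8 and 44.8 at 4 weeks and 39.1, 43.3 and 40.9 at 8 weeks. β samples of 8 weeks thus lay below every other sample, at 21.4 ± 2.2 (SD, n = 3) against 48.5 ± 3.73 in the 4-week β samples and 45.1 ± 0.539 and 41.1 ± 2.07 in non-β-cells. Without Mki67 and Top2a, the members with the most mitotic counts, the β means were 33.9 ± 2.66 and 16.2 ± 0.674 (SD, n = 3). In bulk samples, fewer dividing cells and less RNA per dividing cell cannot be told apart.

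The 19 S-phase members took another course. Their summed level was 228, 221 and 247 CPM in the 4-week β samples and 196, 198 and 210 at 8 weeks. In non-β-cells it was 214, 232 and 230 at 4 weeks and 253, 256 and 283 at 8 weeks. The sum was thus lower at 8 weeks in β-cells, at 202 ± 7.54 against 232 ± 13.6 (SD, n = 3), and higher at 8 weeks in non-β-cells, at 264 ± 16.6 against 225 ± 10.1, without overlap of samples in either fraction. Since Pcna, Rrm1, Mcm2, Mcm4, Mcm6 and Mcm7 make up most of it, each gene was also centred on its own mean over the 12 samples before averaging.

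On that centred log2 scale, the mean of tested mitotic members went from 0.38 ± 0.14 to -0.82 ± 0.19 in β-cells and from 0.28 ± 0.13 to 0.17 ± 0.10 in non-β-cells (SD, n = 3). The mean of tested S-phase members went from 0.07 ± 0.03 to -0.11 ± 0.08 in β-cells and from -0.28 ± 0.14 to 0.32 ± 0.13 in non-β-cells. The S-phase mean minus the mitotic mean therefore went up with age in both fractions. It was -0.43, -0.37 and -0.13 in the 4-week β samples and 0.96, 0.54 and 0.65 at 8 weeks, and -0.67, -0.50 and -0.51 against 0.05, 0.07 and 0.35 in non-β-cells. Samples of the 2 ages did not overlap in either fraction, and no p is given for a score over chosen genes. In β-cells the gap opened with the mitotic mean going down, and in non-β-cells with the S-phase mean going up.

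**Figure D2:**
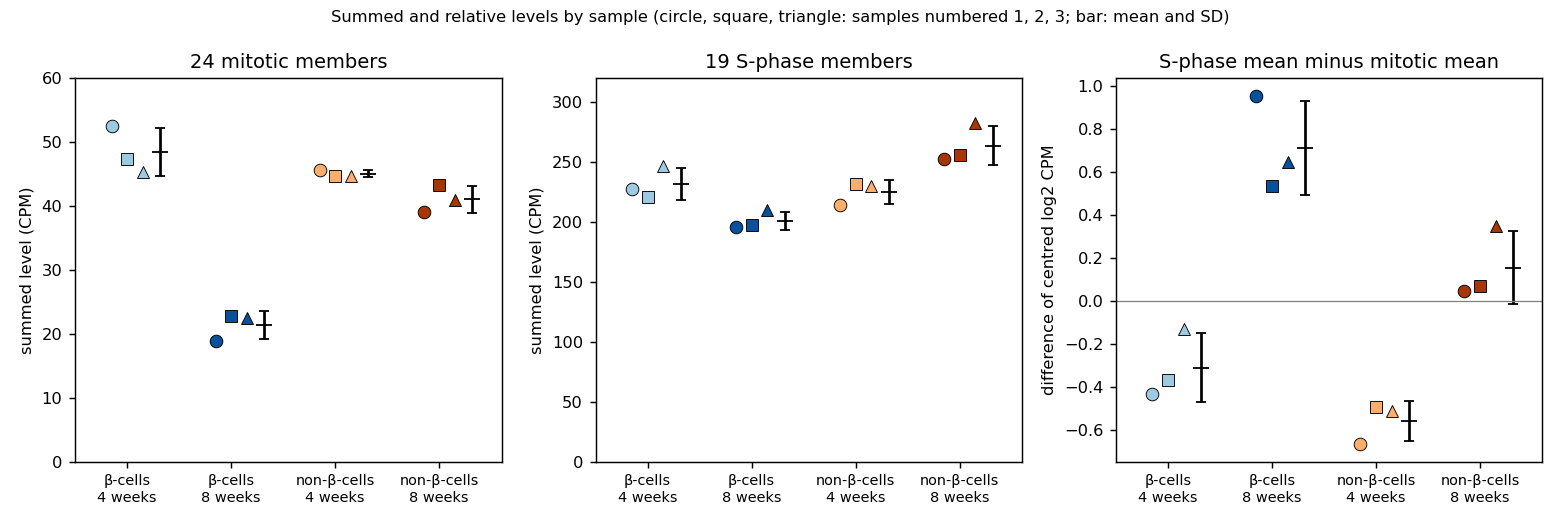
Summed CPM of the 24 mitotic (left) and 19 S-phase members (middle), and S-phase mean minus mitotic mean of centred log2 CPM (right), by sample in the 4 groups. The 3 β samples of 8 weeks, at 18.9 to 22.8 CPM, lie below all others on the left, and on the right 8-week samples lie above 4-week samples in both fractions.

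**Figure D3:**
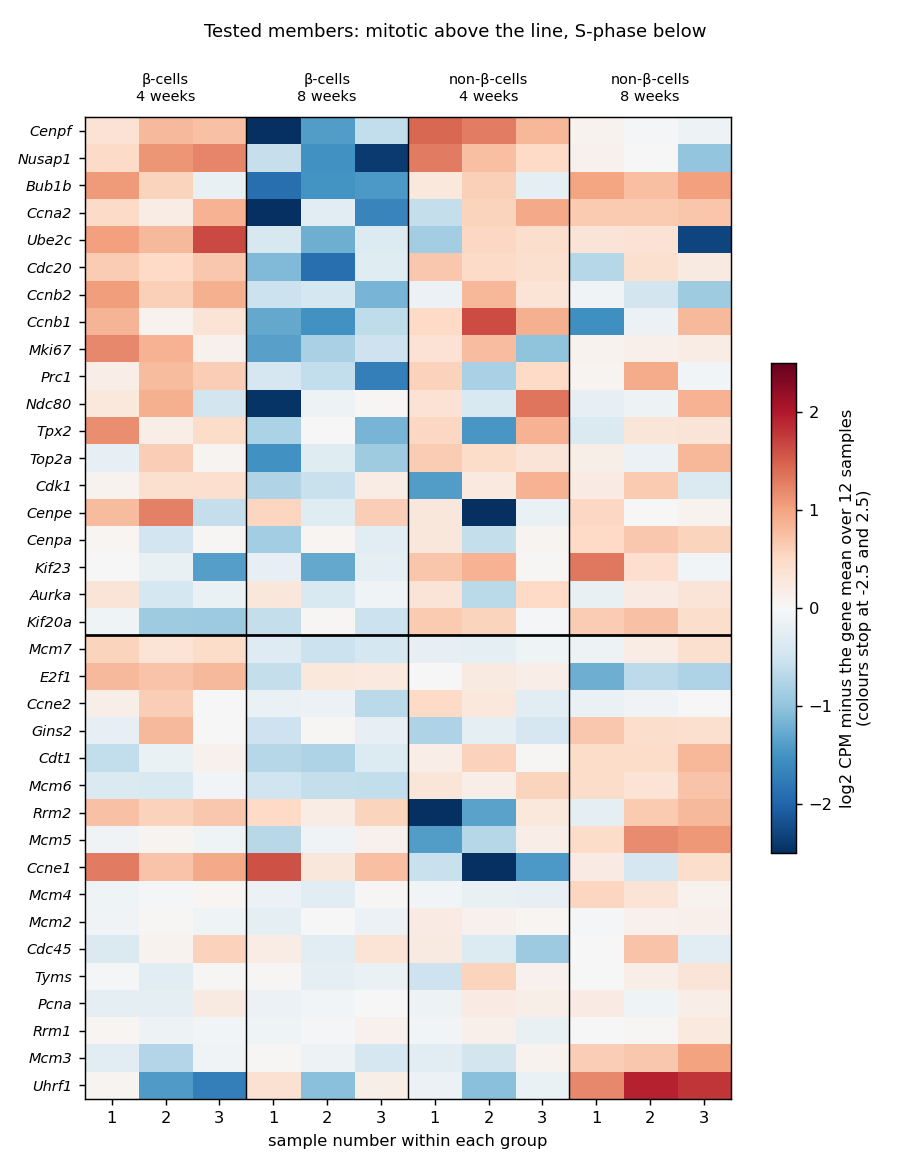
Log2 CPM of the 36 tested members minus the gene's mean over 12 samples, with colours stopping at -2.5 and 2.5. Columns are the 12 samples by group and number, rows are mitotic members above the line and S-phase members below it, ordered by the change with age in β-cells. Most mitotic rows are blue in the 8-week β samples, and Mcm3, Mcm5 and Uhrf1 are red in the 8-week non-β samples.

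The comparison of 8 with 4 weeks in β-cells asks how these genes differed between the ages. Infiltration was not measured in these samples. All groups are NOD mice, so age and stage of disease cannot be told apart. By limma-voom with Benjamini-Hochberg adjustment over all tested genes (two-sided, threshold 0.05), 6 of the 19 tested mitotic members fell and 0 rose, beside 9.35% of all 15598 tested genes that fell and 8.59% that rose. At an unadjusted p under 0.05 also 0 rose by limma-voom, and edgeR and DESeq2 called 0 higher. In 12 of the 19 each 8-week sample lay below each 4-week sample, as in 19.6% of all tested genes, and in 0 above them, against 20.7%. Tested members had a median log2 change of -1.54, against 0.02 over all tested genes. Ccnb2 and Nusap1, which were among the 6, passed the filter only with the 4-week β samples, where they were high. These counts and this median over tested members are therefore no support for a direction. Over all 24 members, tested or not, the mean CPM was lower at 8 weeks in 22, a count for which no share over all genes was computed.

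Among chromosome proteins, Mki67, which coats mitotic chromosomes and is the common marker of dividing cells, was at 14.0, 11.1 and 6.47 CPM in the 4-week β samples and at 2.31, 3.39 and 4.21 at 8 weeks. Its non-β values were 7.73, 10.3 and 2.96 at 4 weeks and 6.45, 6.57 and 6.83 at 8 weeks. Its β samples did not overlap between ages, and both 4-week samples numbered 3 were the lowest of their group. Mki67 fell by 1.61 on the log2 scale in β-cells (SE 0.45, adjusted p = 0.0256), and in non-β-cells the change was 0.07 (95% interval -0.84 to 0.98). Without the 4-week samples numbered 3 the β change was -1.91.

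Top2a, the topoisomerase that untangles sister chromatids, was at 3.00, 5.39 and 3.62 CPM in the 4-week β samples and at 1.16, 2.79 and 1.85 at 8 weeks. It did not overlap between ages in β-cells, but the change of -1.08 did not pass (adjusted p = 0.0765 by limma-voom). In non-β-cells it was at 5.43, 4.79 and 4.34 CPM and at 3.85, 3.14 and 6.22, with the ages overlapping. Cenpf, a large protein of the outer kinetochore, was at 1.12, 1.55 and 1.47 CPM in the 4-week β samples and at 0, 0.264 and 0.522 at 8 weeks. It fell by 3.11 on the log2 scale (SE 0.89, adjusted p = 0.0288), a size that depends on the sample with 0 counts. Its non-β values were 2.45, 2.20 and 1.58 CPM at 4 weeks and 0.909, 0.822 and 0.771 at 8 weeks, also without overlap, with a change of -1.28 that did not pass (adjusted p = 0.138). The other kinetochore members Cenpa, Cenpe and Ndc80 overlapped between ages in β-cells, with log2 changes of -0.19, -0.26 and -1.32.

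Of the spindle checkpoint and the anaphase-promoting complex, Cdc20 and Bub1b passed in β-cells. Cdc20, which activates that complex at anaphase, was at 3.46, 3.13 and 3.53 CPM in the 4-week β samples and at 0.971, 0.528 and 1.77 at 8 weeks. It fell by 1.79 (SE 0.45, adjusted p = 0.0152), and its non-β values of 3.56, 3.08 and 2.91 at 4 weeks and 1.30, 2.91 and 2.57 at 8 weeks touched. Bub1b, which holds the checkpoint on, was at 1.32, 0.912 and 0.505 CPM in the 4-week β samples and at 0.0925, 0.151 and 0.160 at 8 weeks. In non-β-cells it was at 0.727, 0.930 and 0.493 CPM at 4 weeks and at 1.26, 1.05 and 1.28 at 8 weeks, so that the ages were apart in both fractions and in opposite order. Bub1b fell by 2.49 in β-cells (SE 0.75, adjusted p = 0.0364), while the non-β change of 0.78 did not pass (adjusted p = 0.342). Ube2c, the ubiquitin-conjugating enzyme of the complex, was at 3.36, 2.89 and 5.28 CPM and at 1.2, 0.641 and 1.24 in β-cells. Its change of -1.90 lay at the threshold (adjusted p = 0.0503 by limma-voom), and its non-β values of 0.842, 2.35 and 2.22, then 2.03, 2.09 and 0.257, overlapped.

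Of the cyclins and kinases that drive entry into mitosis, Ccnb2 passed by limma-voom in β-cells. DESeq2 called Ccna2 as well, and edgeR called neither. Ccnb2, a B-type cyclin, was at 1.43, 1.03 and 1.28 CPM at 4 weeks and at 0.416, 0.452 and 0.241 at 8 weeks, a fall of 1.72 (SE 0.56, adjusted p = 0.049). Its values in non-β-cells were 0.574, 1.22 and 0.838 CPM, then 0.606, 0.448 and 0.308. Ccnb1, the main B-type cyclin, was at 1.73, 0.991 and 1.19 CPM and then at 0.324, 0.264 and 0.562 in β-cells. In non-β-cells it was at 1.34, 3.03 and 1.77 CPM, then at 0.260, 0.822 and 1.70, and neither the β change of -1.72 nor the non-β change of -1.44 passed. Ccna2, the cyclin of S phase and G2, was at 1.73, 1.39 and 2.29 CPM in the 4-week β samples and at 0.139, 0.980 and 0.321 at 8 weeks. Its β change of -2.15 just missed the threshold (adjusted p = 0.0552 by limma-voom), and its non-β values were 0.765, 1.81 and 2.42 CPM, then 1.95, 1.94 and 2.00. Cdk1, the kinase that these cyclins activate, overlapped in both fractions. It was at 1.22, 1.55 and 1.56 CPM, then 0.648, 0.754 and 1.32 in β-cells, and at 0.383, 1.37 and 2.17, then 1.34, 1.87 and 0.873 in non-β-cells. Its β change was -0.72 (95% interval -2.00 to 0.56).

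Plk1, a kinase needed through mitosis, did not pass the filter. It was at 0.560, 0.476 and 0.734 CPM and then 0.139, 0.754 and 0.441 in β-cells, and at 0.765, 0.147 and 2.32, then 0.779, 0.896 and 0.822 in non-β-cells. The 2.32 CPM belongs to the 4-week sample numbered 3, and the groups overlapped. Aurka did not move with age in β-cells beyond its spread, with a log2 change of 0.04 (95% interval -0.74 to 0.81). Aurkb, a related kinase that acts at the centromeres, was at or below 1.04 CPM in every sample and at 0 counts in 4 of the 12.

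Spindle and cytokinesis members differed among themselves. Nusap1, a protein that bundles spindle microtubules, was at 0.865, 1.39 and 1.51 CPM in the 4-week β samples and at 0.370, 0.151 and 0.0401 at 8 weeks. It fell by 3.03 (SE 0.81, adjusted p = 0.0208), and in non-β-cells it was at 1.61, 1.08 and 0.887 CPM, then at 0.649, 0.598 and 0.257, a change of -1.30 that did not pass. Kif20a, a kinesin of cytokinesis, went the other way from most, at 1.98, 1.11 and 1.10 CPM, then 1.39, 2.19 and 1.44 in β-cells, and 3.40, 3.18 and 2.07, then 3.38, 3.59 and 2.93 in non-β-cells. The ages overlapped in both fractions. Birc5, a subunit of the chromosomal passenger complex, did not pass the filter, at 0.916, 0.357 and 1.79 CPM, then 0.463, 0.867 and 0.0802 in β-cells and 0.536, 0 and 0.197, then 1.17, 0.822 and 0.565 in non-β-cells. Prc1, which crosslinks midzone microtubules, and Tpx2, a spindle assembly factor, had β changes of -1.54 and -1.24 with no overlap of ages and adjusted p of 0.0537 and 0.175, while Kif23, a kinesin of the midbody, was at -0.09 with overlap.

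The count of 6 rests on all 3 β samples of 8 weeks. It was 1, 0 and 2 without sample 1, 2 or 3 of that group in turn, and 3 without sample 1 or sample 2 of the 4-week group. The direction of each of the 6 was the same in every one of these fits. Other markers moved with age in the β samples too. The 9 β-cell markers summed to 46700 to 81800 CPM at 4 weeks and 108000 to 114000 at 8 weeks, the 6 alpha-cell markers to 5630 to 9410 and 1520 to 2570, and the 10 acinar markers to 103 to 219 and 469 to 1010. Of the 16 leukocyte markers 13 did not pass the filter, and their sum, 53.0 to 55.8 CPM at 4 weeks and 78.8 to 83.5 at 8 weeks, was mostly Cd68 (47.5 to 50.1, then 64.0 to 74.1). Ptprc, which encodes CD45, was at 0 in the 8-week β samples along with Cd4. The part of these shifts in the mitotic values was not tested.

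**Figure D4:**
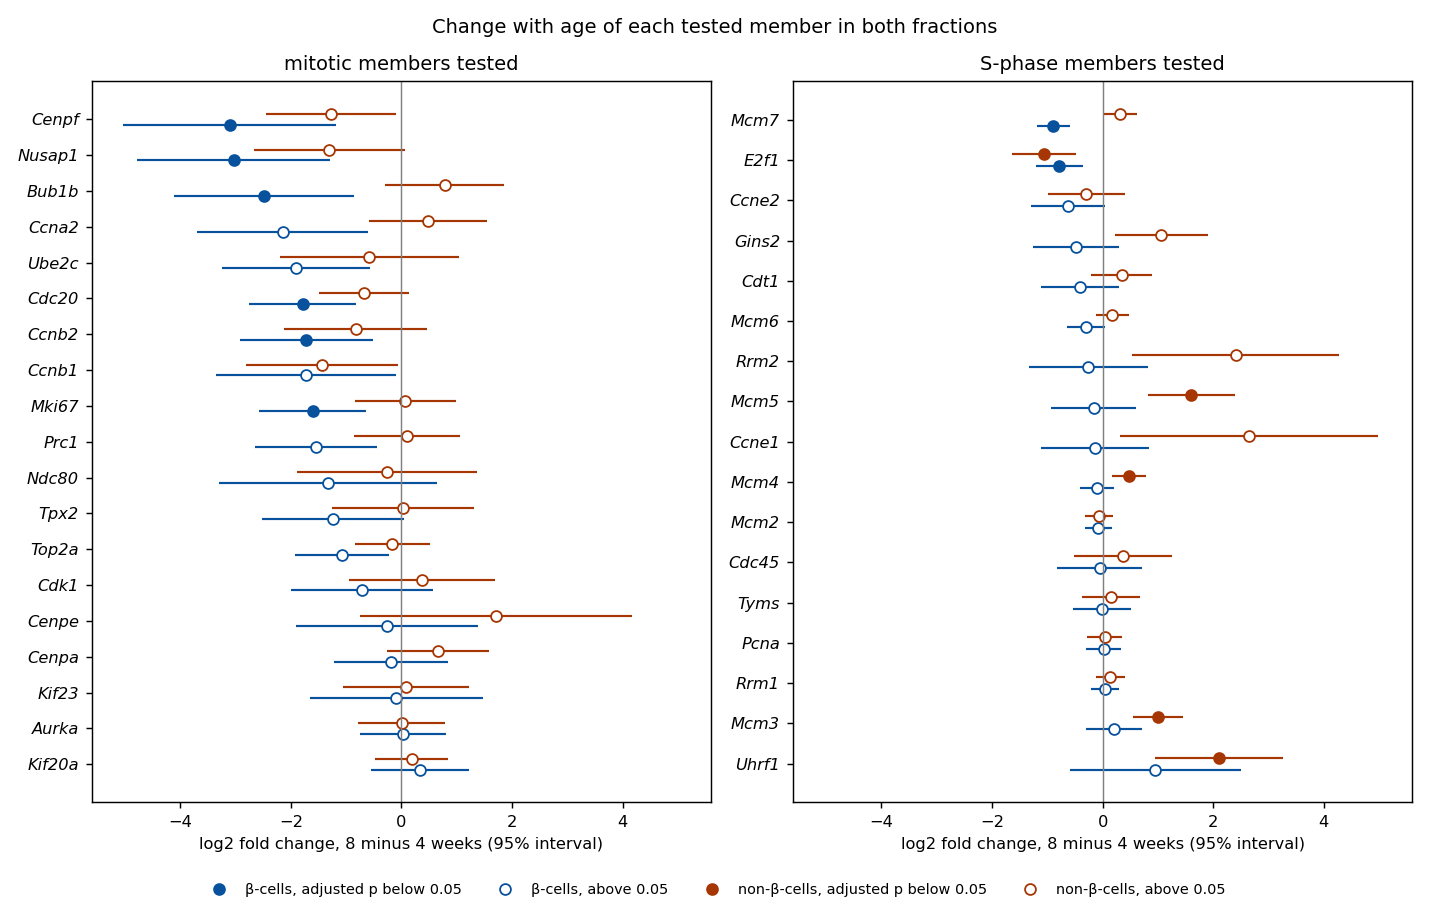
Log2 fold change from 4 to 8 weeks with its 95% interval for the 19 tested mitotic (left) and 17 tested S-phase members (right), in β-cells (blue) and non-β-cells (orange). Filled points passed the adjusted p of 0.05: 6 mitotic and 2 S-phase members fell in β-cells, while 4 S-phase members rose and 1 fell in non-β-cells.

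Of the 17 tested S-phase members, 2 fell and 0 rose in β-cells, where 17.9% of all tested genes changed in either direction. At an unadjusted p under 0.05 also 0 rose, and edgeR and DESeq2 called 0 higher. Mcm7, a subunit of the replicative helicase, was at 37.1, 31.8 and 34.4 CPM in the 4-week β samples and at 19.9, 17.1 and 18.5 at 8 weeks, and in non-β-cells at 21.8, 21.4 and 23.4, then 22.9, 28.4 and 33.0. It fell by 0.89 in β-cells (SE 0.14, adjusted p = 0.000862) and kept that call without any 1 sample. E2f1, the factor that switches on S-phase genes, was at 17.7, 16.7 and 17.7 CPM in β-cells and then at 6.66, 12.2 and 12.0, and at 10.1, 11.9 and 11.4, then 4.29, 6.35 and 5.91 in non-β-cells. It fell in both fractions, by 0.78 (SE 0.20, adjusted p = 0.017) and by 1.06 (SE 0.27, adjusted p = 0.0155), with no overlap of ages in either. Without β sample 1 of 8 weeks, which is the lowest, only 1 of the 2 calls was left. The non-β call of E2f1 was lost without non-β sample 1 of 8 weeks, the lowest of its group.

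None of the remaining helicase subunits passed for age in β-cells. Mcm2 was at 19.8, 21.6 and 19.6 CPM, then 18.0, 20.9 and 19.1 in β-cells, and at 24.2, 22.8 and 22.0, then 20.6, 22.7 and 22.9 in non-β-cells. Its change was -0.08 in β-cells (95% interval -0.33 to 0.17) and -0.07 in non-β-cells (-0.32 to 0.18), so larger moves lay outside these intervals. Mcm6 was at 17.3, 17.1 and 21.4 CPM, then 15.8, 14.7 and 14.6 in β-cells, a change of -0.31 without overlap that did not pass (adjusted p = 0.211 by limma-voom). Pcna was as level, at 39.7, 40.4 and 55.3 CPM, then 43.1, 45.5 and 47.1 in β-cells, and at 43.2, 54.4 and 52.1, then 54.8, 43.7 and 53.5 in non-β-cells, with changes of 0.02 (95% interval -0.29 to 0.33) and 0.04 (-0.28 to 0.35). Rrm1, the large subunit of ribonucleotide reductase, and Tyms, which makes thymidylate, changed by 0.04 and -0.02 in β-cells and by 0.14 and 0.15 in non-β-cells, with overlap throughout.

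In non-β-cells the S-phase class held 4 members that rose and 1 that fell, where 16.4% of all tested genes changed, 11.6% upward and 4.8% downward. Mcm3 was at 6.58, 5.82 and 8.48 CPM in the 4-week non-β samples and at 12.4, 12.8 and 16.1 at 8 weeks, and in β-cells at 6.57, 4.80 and 7.52, then 8.19, 7.35 and 5.94. It rose by 1.00 in non-β-cells (SE 0.21, adjusted p = 0.00534). Mcm5 was at 1.72, 2.84 and 5.28 CPM in the 4-week non-β samples and at 6.49, 10.8 and 10.0 at 8 weeks, against 4.38, 4.92 and 4.31, then 2.87, 4.41 and 5.05 in β-cells. Its rise was 1.60 (SE 0.36, adjusted p = 0.00809), with the 4-week sample numbered 3 the highest of its group, and 1.99 without the samples numbered 3. Mcm4 was at 22.1, 20.3 and 20 CPM, then 33.5, 29.2 and 24.5 in non-β-cells, a rise of 0.47 (SE 0.14, adjusted p = 0.035), and stayed at 21.3, 22.7 and 23.9, then 20.9, 19 and 23.7 in β-cells.

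Uhrf1, which reads hemimethylated DNA behind the fork and brings in the maintenance methyltransferase, had the largest rise that passed. It was at 0.995, 0.489 and 0.986 CPM in the 4-week non-β samples and at 2.68, 4.48 and 4.06 at 8 weeks, a change of 2.10 (SE 0.54, adjusted p = 0.0158). Its β values of 1.17, 0.357 and 0.275 CPM, then 1.48, 0.490 and 1.24 overlapped. Rrm2, the regulated subunit of ribonucleotide reductase, was at 0.0383, 0.440 and 1.53 CPM in the 4-week non-β samples and at 1.04, 2.02 and 2.26 at 8 weeks, with 2.14, 1.90 and 2.06, then 1.80, 1.43 and 1.89 in β-cells. The wide 4-week spread left its non-β change of 2.40 short of the threshold (SE 0.87, adjusted p = 0.0794 by limma-voom). Ccne1, a cyclin that starts S phase, had a non-β change of 2.64 that did not pass (adjusted p = 0.123), at 0.803, 0 and 0.394 CPM and then 1.43, 0.896 and 1.70. In β-cells Ccne1 was at 3.16, 2.06 and 2.43 CPM, then 3.84, 1.51 and 2.13, and its relative Ccne2 at 3.21, 4.48 and 2.84, then 2.54, 2.60 and 1.77. Ccne2 in non-β-cells was at 4.13, 3.47 and 2.37 CPM, then 2.55, 2.69 and 2.88.

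Below the filter, Cdc6 and Tk1 were also at their highest in the 8-week non-β samples. Cdc6 was at 0.0765, 0 and 0.197 CPM there at 4 weeks and at 0.563, 2.39 and 1.59 at 8 weeks, and Tk1, which salvages thymidine, at 0.153, 0 and 0.197, then 0.996, 1.12 and 1.03. With no filter both passed the test. In that fit the median log2 change over all genes was 0.206, against 0.012 with the filter, and Mcm4 lost its call. Gins2 and Cdt1, the other loading and firing factors, had non-β changes of 1.06 and 0.34 with adjusted p of 0.0822 and 0.429, and Cdc45 changed by 0.37 with overlap. Over all 19 S-phase members, tested or not, the mean was higher at 8 weeks in 16 in non-β-cells and in 6 in β-cells. The share over all genes was not computed for these counts.

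Mitotic members gave no call in non-β-cells. Of the 19 tested, 0 passed by limma-voom, edgeR or DESeq2, beside 16.4% of all tested genes, and 2 (Cenpf and Ccnb1) were lower at an unadjusted p under 0.05. The ages did not overlap in 2 upward and 2 downward, beside 19% and 13.8% of all tested genes, and in 6 upward and 1 downward of the S-phase members. The median log2 change of the mitotic members was 0.03, with 11 positive and 8 negative, against 0.01 over all tested genes. The count of 5 S-phase calls was 2 without non-β sample 1 of 4 weeks and 3 without sample 2 of that group. Between 4 and 8 weeks the non-β samples also rose in markers of endothelial and mesenchymal cells, with all 10 of each list called higher. The 10 endothelial markers summed to 68.0 to 117 CPM at 4 weeks and 492 to 1300 at 8 weeks, and the 10 mesenchymal markers to 112 to 314 and 719 to 1110. The 16 leukocyte markers summed to 19.7 to 30.7 CPM and then 59.7 to 74.2, mostly through Cd14 (7.88 to 17.5, then 39.0 to 53.7) and Cd68, and 13 of them did not pass the filter. Ptprc was at 0.574, 0 and 0.789 CPM at 4 weeks and at 0.130, 0 and 0 at 8 weeks, with Cd3g and Adgre1 among those at 0 at 8 weeks. The 10 acinar markers went from 34.4 to 94.9 up to 212 to 827 CPM. The part of these cells in the S-phase rise was not tested.

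**Figure D5:**
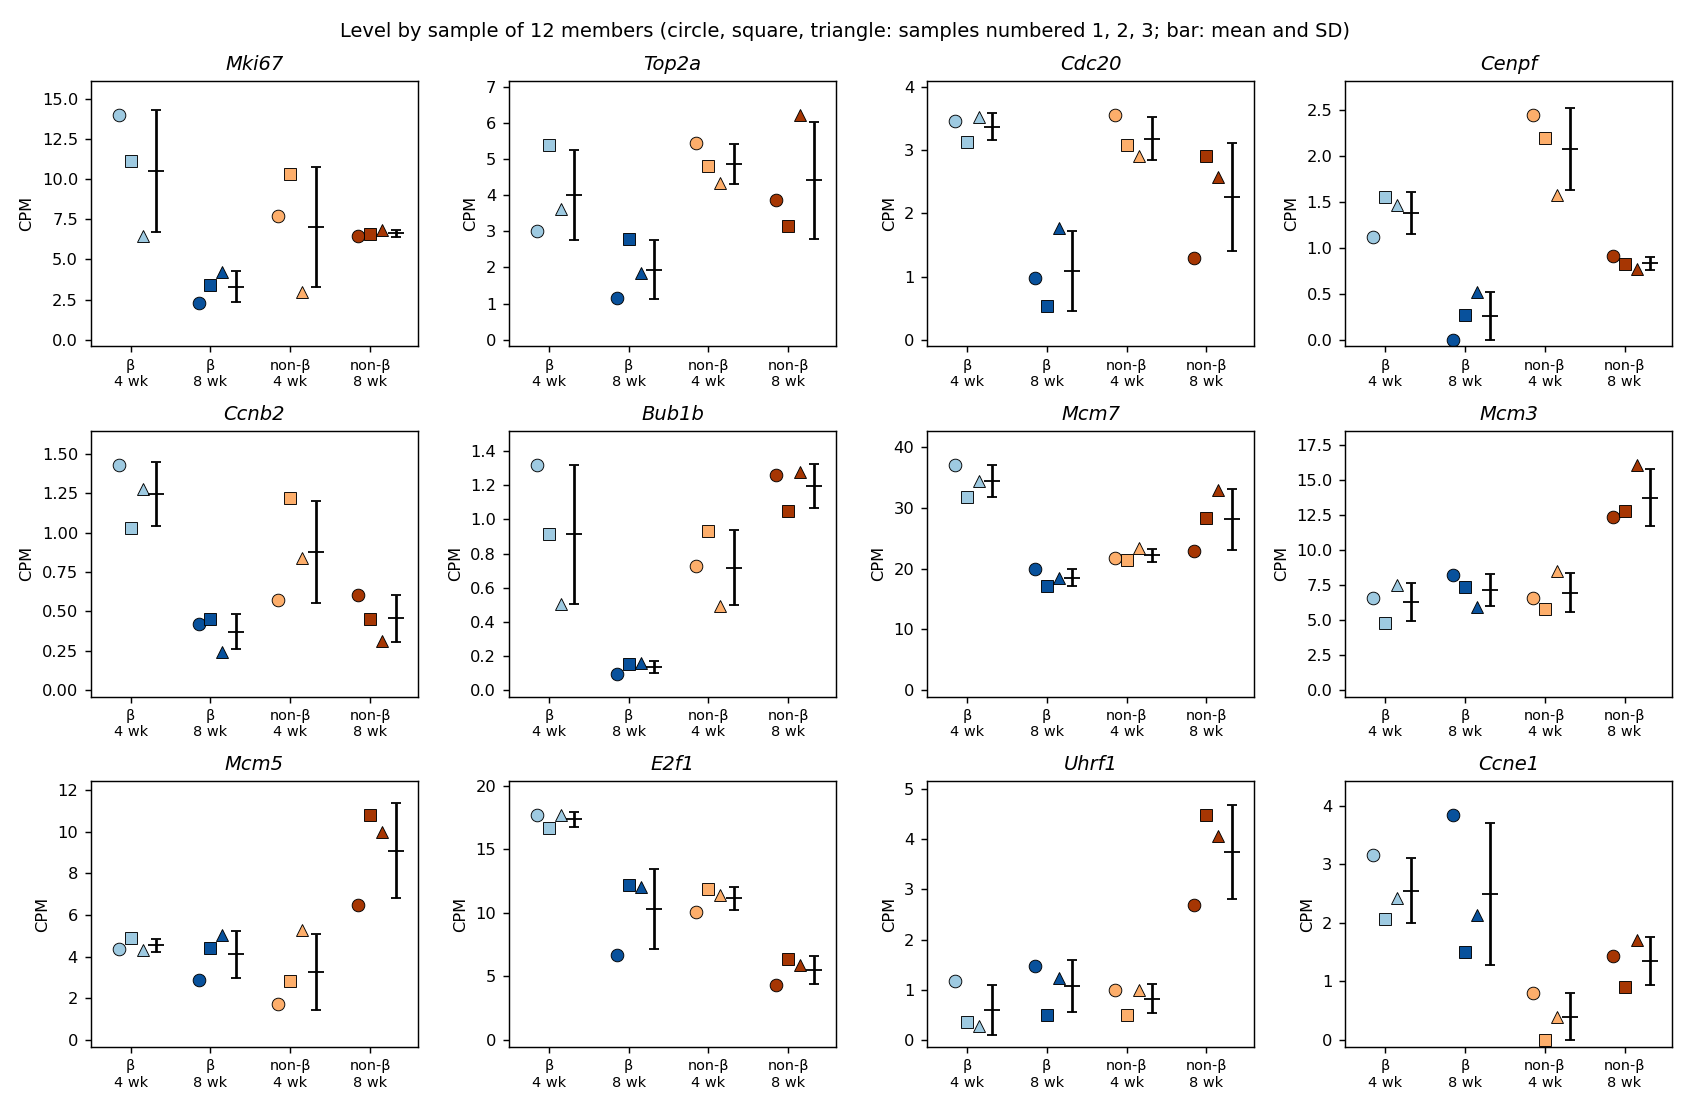
CPM of 6 mitotic members (Mki67, Top2a, Cdc20, Cenpf, Ccnb2, Bub1b) and 6 S-phase members (Mcm7, Mcm3, Mcm5, E2f1, Uhrf1, Ccne1) in each of the 12 samples, with the mean and SD of each group beside its points. Each panel has its own scale. β samples of 8 weeks lie below β samples of 4 weeks for the 6 mitotic members, Mcm7 and E2f1, and non-β samples of 8 weeks lie above those of 4 weeks for Mcm3, Mcm5 and Uhrf1.

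Between the fractions, the mitotic sum in β against non-β samples was 48.5 ± 3.73 against 45.1 ± 0.539 CPM at 4 weeks and 21.4 ± 2.2 against 41.1 ± 2.07 at 8 weeks (SD, n = 3). The centred S-phase mean was 0.07 ± 0.03 against -0.28 ± 0.14 at 4 weeks and -0.11 ± 0.08 against 0.32 ± 0.13 at 8 weeks, without overlap of the fractions at either age. The S-phase sum was 232 ± 13.6 against 225 ± 10.1 CPM at 4 weeks, with the fractions overlapping, and 202 ± 7.54 against 264 ± 16.6 at 8 weeks. At 4 weeks 9 of the 17 tested S-phase members were higher in β-cells and 8 lower. Their median log2 difference was 0.08, within a range of -0.73 to 3.49, so a higher class as a whole is not shown. At 4 weeks, where equal numbers may mark pairs, 1 of 19 tested mitotic members differed, beside 48.5% of all tested genes (24.9% higher and 23.7% lower in β-cells). The fractions did not overlap in 4 of them (1 higher and 3 lower) and in 7 S-phase members (5 higher and 2 lower), beside 26.5% of all tested genes higher and 26.7% lower. Kif20a was lower in β-cells by 1.11 on the log2 scale (SE 0.38, adjusted p = 0.0264 by limma-voom), and with the sample number as a block Mki67 was called as well, for a count of 2. Ube2c, next in order, was higher in β-cells by 1.24 without overlap and did not pass (adjusted p = 0.0707). Of the S-phase members, Mcm7, E2f1, Ccne1 and Rrm2 were higher in β-cells, by 0.63, 0.65, 3.49 and 2.74, and Mcm6 was lower, by 0.61, which left 12 of the 17 tested without a call. The block made 4 of these 5 calls, and Rrm2 was not among them (log2 difference 1.71, adjusted p = 0.143).

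At 8 weeks 5 mitotic members were lower in β-cells and 0 higher, beside 49.2% of all tested genes that differed, 25.6% lower and 23.6% higher. The fractions did not overlap in 9 of the 19, all lower, and in 9 S-phase members, 8 lower and 1 higher, beside 32.4% of all tested genes in either direction. The mitotic share called lower was thus near that of all tested genes. The 5 that passed were Bub1b (-3.01, adjusted p = 0.00452 by limma-voom), Ccna2 (-2.32), Cenpf (-2.41), Top2a (-1.21) and Kif20a (-0.97). Bub1b passed the filter only with the 8-week non-β samples, where it was high. The 24 mitotic members, tested or not, had a lower mean in β-cells in 23 cases, again with no share over all genes computed. At an unadjusted p under 0.05, 0 of the tested mitotic members were higher, and edgeR and DESeq2 called 0 higher. These counts over tested members are no support for a direction. S-phase members gave 7 lower and 1 higher. Mcm6, at 15.8, 14.7 and 14.6 CPM in β-cells and 30.9, 28.2 and 36.6 in the 8-week non-β samples, was lower by 1.09 (SE 0.15, adjusted p = 6.2e-05), after 27.7, 25.0 and 32.8 CPM in the 4-week non-β samples. Mcm3, Mcm4, Mcm5, Mcm7, Cdt1 and Uhrf1 were lower by 0.96, 0.46, 1.07, 0.58, 1.23 and 1.88, and E2f1 was higher by 0.93. Thus 5 of the 6 helicase subunits stood lower in the 8-week β samples, and Mcm2 did not pass (-0.18, 95% interval -0.44 to 0.07).

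The count of 5 mitotic calls at 8 weeks was 3 by edgeR and 8 by DESeq2, and lay between 1 and 4 without any 1 sample. Endothelial markers at 8 weeks summed to 16.5 to 19.1 CPM in β-cells and 492 to 1300 in non-β-cells, and mesenchymal markers to 26.9 to 55.4 and 719 to 1110. The part of those cells in the difference between fractions was not tested.

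The interaction of age and fraction asks whether a gene aged differently on the 2 sides of the sort. Mcm7 was the single member that passed, with a β change lower than the non-β change by 1.21 on the log2 scale (SE 0.20, adjusted p = 0.00352 by limma-voom), beside 5.13% of all tested genes, 3.33% lower and 1.8% higher. In β against non-β samples it stood higher at 4 weeks and lower at 8 weeks, both past the threshold. Of the mitotic members 0 passed by limma-voom, 4 were lower at an unadjusted p under 0.05 (Bub1b, Ccna2, Mki67 and Prc1), and edgeR and DESeq2 each called Bub1b. Bub1b itself had a difference of -3.27 (SE 0.90, adjusted p = 0.0564), and it passed the filter only with the 8-week non-β samples, where it was high. Mki67 had -1.68 (95% interval -3.01 to -0.35, adjusted p = 0.153), and it was called with Bub1b in the fit without the 4-week samples numbered 3. With the sample number as a block, Mki67, Bub1b, Mcm7 and Mcm5 were called. Without the block and with all 12 samples, limma-voom did not show that a mitotic fall differed from the change on the non-β side, and other settings called up to 3 mitotic members. Mcm5 came nearest among the other S-phase members (-1.76, SE 0.51, adjusted p = 0.0674), followed by Mcm4 (-0.58, adjusted p = 0.126), while E2f1 was at 0.28 (95% interval -0.45 to 1.00).

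Related genes outside the 43 were read from lists of the same pathways. Of 40 tested further mitotic genes, 6 fell and 0 rose in β-cells (unadjusted p under 0.05: 11 lower, 2 higher), and 1 fell in non-β-cells, beside 9.35% and 4.8% of all tested genes that fell. Stmn1, which destabilises microtubules, was at 18.4 to 29.8 CPM in the 4-week β samples and 5.84 to 8.67 at 8 weeks (log2 change -1.60, adjusted p = 0.00124 by limma-voom). Pbk, a mitotic kinase, and Ckap2l, a spindle protein, fell by 3.83 and 2.55. Pbk was at 0, 0.264 and 0.361 CPM in the 8-week β samples, so the size of its fall depends on the sample at 0. Racgap1, a partner of Kif23 in cytokinesis, fell in non-β-cells by 0.89. Of 46 tested further replication genes, 1 rose and 2 fell in β-cells, and 1 rose and 1 fell in non-β-cells, smaller shares than the 17.9% and 16.4% of all tested genes that changed. Dut, which clears dUTP, fell in both fractions, by 0.73 and 0.67, Lig1, the ligase of Okazaki fragments, fell by 0.49 in β-cells, and Wdhd1, a fork protein, rose by 0.80 there. Timeless, of the fork protection complex, rose by 1.64 in non-β-cells, from 2.98 to 3.67 CPM at 4 weeks to 7.69 to 15.4 at 8 weeks.

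Genes that act before S phase were read beside the same shares. Of 12 tested G1 cyclins, kinases and relatives, 5 fell and 1 rose in β-cells and 2 fell and 2 rose in non-β-cells. Myc, a growth-promoting factor, fell in both, by 1.56 and 1.13, from 89.7 to 95.2 CPM in the 4-week β samples to 30.3 to 32.8 at 8 weeks. Ccng1, a p53 target, also fell in both, by 0.48 and 0.73. Ccnd3, a D-type cyclin, rose by 0.54 in non-β-cells. Ccng2, linked to cell cycle exit, fell by 1.77 in β-cells and rose by 0.64 in non-β-cells. Of 15 tested E2F and RB family or DREAM genes, Lin37 alone was called, with a fall of 0.79 in β-cells, again below the share of all tested genes. Of 15 tested inhibitors and arrest genes, 5 fell and 2 rose in β-cells and 3 fell and 2 rose in non-β-cells, where 9.35% and 4.8% of all tested genes fell and 8.59% and 11.6% rose. Trp53 and its antagonist Mdm2 fell in β-cells by 0.84 and 0.87. Cdkn1a, the p21 inhibitor, fell in both, by 0.52 and 0.77. Btg1, an antiproliferative gene, fell by 0.89 in β-cells and rose by 1.23 in non-β-cells, and Gadd45b, a stress gene, rose by 2.14 in non-β-cells and stood at 0.03 in β-cells (95% interval -0.40 to 0.47).

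Some members share their locus with other genes, and whether the counting used the strand is not given in the sources used here. Cdt1 lies on the same strand as, and inside, the annotated gene Gm20388, and Kif11 holds a processed pseudogene on its strand. On the opposite strand, Mcm7 overlaps Cops6 and Ap4m1, Cdc20 overlaps Elovl1, Ccna2 overlaps Exosc9, Cdc45 overlaps Ufd1, Prc1 overlaps Rccd1, Ccne2 overlaps Ints8, Kif20a overlaps Cdc23, Gins2 overlaps Gse1 and Gm20388, Nusap1 overlaps Oip5, and Tk1 overlaps Afmid. Values of these members are uncertain to the extent that reads were divided between the overlapping genes.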

How the data were processed

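RNA was sequenced from 12 samples of sorted NOD islet cells, 4 groups of 3 by fraction and age as the labels give them. Per the study's methods and the submitters' processing notes, the authors ran fastp on reversely stranded, single-end reads, quantified Ensembl mouse transcripts (GRCm38) with kallisto and summed these to genes. The deposited values are estimated counts per gene, neither scaled nor filtered; tool versions and strand settings in counting are not given in the sources used here. Every value column was mapped to a sample (0 left over).

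Estimated counts were rounded. Genes with CPM above 1 in at least 3 samples were kept (15598), libraries scaled by TMM (edgeR 4.0.16), and all 12 samples fitted in 1 limma-voom model of 4 group means (limma 3.58.1, R 4.3.3), as the study's methods describe, with two-sided tests adjusted by Benjamini-Hochberg. Totals of 13755106 to 27040652 counts set the precision, which is low for mitotic members. The prior count for log2 CPM was 2. The procedure was tested on simulated data. DESeq2 1.42.0, its size factors and edgeR's quasi-likelihood test served as alternatives, beside total-count scaling, no filter or at least 10 counts in at least 6 samples, sample quality weights, only the groups compared, a replicate block, and omitted samples.

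Members and lists were chosen with earlier results of these data known. Values by sample were given for a set of 12 members (Mki67, Top2a, Cdk1, Ccnb1, Plk1, Birc5, Mcm2, Mcm5, Pcna, Rrm2, Ccne1, E2f1) and, in each class, for the 4 tested members with the lowest adjusted p in each age change, the 3 in the interaction and the 2 in each comparison of fractions; Ccnb2, Cdc6 and Tk1 were added after their values were seen. From each related list at most the 3 called genes with the lowest adjusted p in each age change were named. The printed promoters were chosen after the words in them were seen.

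Whether equal sample numbers mark pairs was checked by how samples strayed from their group means. Over 10280 genes with a mean log2 CPM of at least 3, β and non-β samples at 4 weeks correlated at 0.29, 0.43 and 0.67 (0.08, 0.13 and 0.31 over all tested genes). The limit on level was set after the values over all tested genes were seen. Unlike numbers 1 and 2 correlated at 0.26 and 0.43 over the same genes, so samples numbered 3 alone stood out, and the number may pair the samples but is not shown to. The other comparisons had at least 1 pair at or below 0.1.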

Additional observations from a re-analysis of the deposited data

Results flagged for a closer look

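By the limma-voom interaction test at an adjusted p under 0.05, the change with age was not the same in both fractions in 1 of the 43 cell cycle and replication members and in 6 of the related genes named above. Values are the β change minus the non-β change on the log2 scale. Mcm7, the helicase subunit, stood at -1.21 (adjusted p = 0.00352): its 3 β samples of 8 weeks lay below all 3 of 4 weeks, while the non-β samples of the ages overlapped. Ccng2 stood at -2.41, Btg1 at -2.12 and Gadd45b at -2.11. Trp53 stood at -0.93, Ccnd3 at -0.74 and Mdm2 at -0.63.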

How the results depend on the processing

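Single mitotic members rest on few counts, and depth limits what can be called among them. For the 33 calls of members, 313 alternative fits kept the direction in 313 and the call in 292, and 204 fits that left out 1 sample kept the direction in 204 and the call in 147. The age calls of Mki67 in β-cells held in 1 of 6 such fits and those of Ccnb2 in 0 of 6, whereas Mcm7 kept each of its calls.

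Counts of called members moved as follows, and the cause was not tested. Mitotic falls with age in β-cells numbered 6, against 4 by edgeR, 5 with no filter, 10 by DESeq2 and 12 with sample quality weights. At 4 weeks the mitotic count of 1 between fractions was 0 with no filter, 0 with only the groups compared, 3 with quality weights and 2 without both 4-week samples numbered 3. At 8 weeks the mitotic count of 5 was 3 by edgeR, 3 with no filter, 8 by DESeq2 and 9 with quality weights. In the interaction the mitotic count of 0 was 1 by edgeR, 1 by DESeq2, 1 with no filter, 3 with quality weights and 2 without both samples numbered 3, and the S-phase count of 1 was 2 by DESeq2, 3 with quality weights and 2 without those samples.

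Leaving out 1 sample in turn gave 0 to 5 mitotic and 1 to 2 S-phase calls for age in β-cells, 0 to 0 mitotic and 2 to 5 S-phase calls for age in non-β-cells, 0 to 1 and 3 to 6 between fractions at 4 weeks, 1 to 4 and 6 to 8 at 8 weeks, and 0 to 1 and 1 to 2 in the interaction. The mitotic count at 8 weeks was 1 without β sample 1, and the S-phase count at 4 weeks was 3 without non-β sample 1.

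With the replicate block, age in β-cells gave 4 mitotic and 2 S-phase calls, age in non-β-cells 0 and 5, the fractions 2 and 4 at 4 weeks and 6 and 8 at 8 weeks, and the interaction 2 (Mki67 and Bub1b) and 2 (Mcm7 and Mcm5). The pairing is a hint from the data at 4 weeks only.

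Over all tested genes, quality weights called 5382 genes for age in β-cells against 2799, and in the interaction 800 genes became 2384 with weights, 1562 by DESeq2 and 2080 with the block. The centred S-phase change in β-cells was -0.18, or -0.09 as a median over members, and -0.23 to -0.13 without 1 sample. In non-β-cells it was 0.60, or 0.84 with every member that had a count, 0.41 as a median, and 0.53 to 0.69 without 1 sample. The centred mitotic change was -1.29 to -1.10 in β-cells and -0.22 to -0.03 in non-β-cells without 1 sample.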
